A study of Mus musculus with 8 samples.

Results

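The genes described here are those of the mouse testis that carry a cilia and flagella associated (Cfap) or radial spoke head (Rsph) name, together with Hydin, Spag6, Spag6l, Spag16, Spag17, Spef1 and Spef2. They were chosen by gene symbol, with earlier results of these data known, among the protein-coding genes of an RNA-seq table. Of 63 symbols that met this rule in GENCODE release M39, 62 were measured among the 13785 protein-coding genes and 17127 genes of the table, and Rsph4a was not analysed here. By the place of their products in the flagellum, 16 are central pair genes and 11 are radial spoke genes. A further 15 encode proteins of the doublet lumen, 5 act in the tethering and regulation of inner dynein arms, 2 in dynein arm assembly, and 13 are other or unplaced genes.

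The study compared whole testes of wild-type mice with testes of mice labelled Iqch-/-, called Iqch mutants below, all 4 months old, with 1 library per mouse. Iqch encodes a calmodulin-binding IQ motif protein of the testis. The mutants were homozygous for small CRISPR-Cas9 deletions made in B6CBAF1 zygotes. The authors kept 2 deletion lines, and their plot of RNA-seq coverage over Iqch names the line Iqchmu7. The sample labels do not say from which line each mouse came, and the control mice are labelled WT. Of the 8 samples listed, 7 were analysed, namely wild-type mice 1 to 4 and mutants 1, 2 and 4, and mutant 3 was not analysed here. Values are CPM, in which the counted reads of each library sum to 1000000. If the smallest step between values is taken as 1 read, the libraries held between 32064384 and 37551057 reads. Iqch itself was 217, 206, 216 and 193 CPM in the wild-type libraries and 67.7, 64.8 and 69.2 CPM in the mutant libraries, a log2 fold change of -1.62 (SE 0.05, limma FDR 1.9e-10). Among the 35 ways to divide the libraries into 4 and 3, only the labelled one gave so large a difference (exact permutation test, two-sided p = 0.0286, the smallest this design allows, or 0.0571 by the doubled tail).

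The sperm tail is built around an axoneme, in which a ring of doublet microtubules surrounds a central pair of single microtubules. Radial spokes reach from the doublets to the projections of the central pair and pass on the signals that set the timing of the dynein motors. The proteins inside the doublets, often called microtubule inner proteins, stiffen the tube, and tethers hold the dynein arms in place. In the testis the genes for these parts are transcribed mainly from meiosis onwards and in round spermatids, and many of their mutations cause male infertility with immotile or malformed tails.

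The flagellar genes were lower in mutant testes as a group, by a small amount. Of the 62 genes, 30 fell, 1 rose (Rsph3b) and 31 did not pass the test at an FDR of 0.01 in limma, where 14.2% of all tested genes fell, 36.3% rose and 50.4% did either. Of the tested protein-coding genes alone 12.7% fell and 41.5% rose. Their median log2 fold change was -0.19, against 0.12 over all tested genes and 0.18 over tested protein-coding genes, so that it lay -0.31 from the median of all genes. In all, 55 of the 62 had a log2 fold change below 0, against 38% of tested genes. Their summed level was 9808, 9786, 10042 and 9535 CPM in the wild-type libraries and 8532, 8480.5 and 8614 CPM in the mutant libraries. Every mutant sum lay below every wild-type sum, and the mutant mean was 87.2% of the wild-type mean.

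The changes were of narrow range. The log2 fold changes ran from -0.61 (Cfap61) to 0.26 (Rsph3b), and 0 of the 62 genes changed over 2-fold. Only 3 of the genes that fell did so by more than 0.5 on the log2 scale, Cfap61 of the radial spokes, Cfap144 of the doublet lumen and Cfap44 of the dynein tether. In 35 genes every mutant library lay below every wild-type library, where 19.5% of tested genes did so. In 2 genes, Rsph3b and Cfap410, every mutant library lay above the wild type, where 42.8% of tested genes did so, and in 25 the groups overlapped. Replicates were close, with a median coefficient of variation of 5.65% in wild type and 3.36% in mutants.

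**Figure D1:**
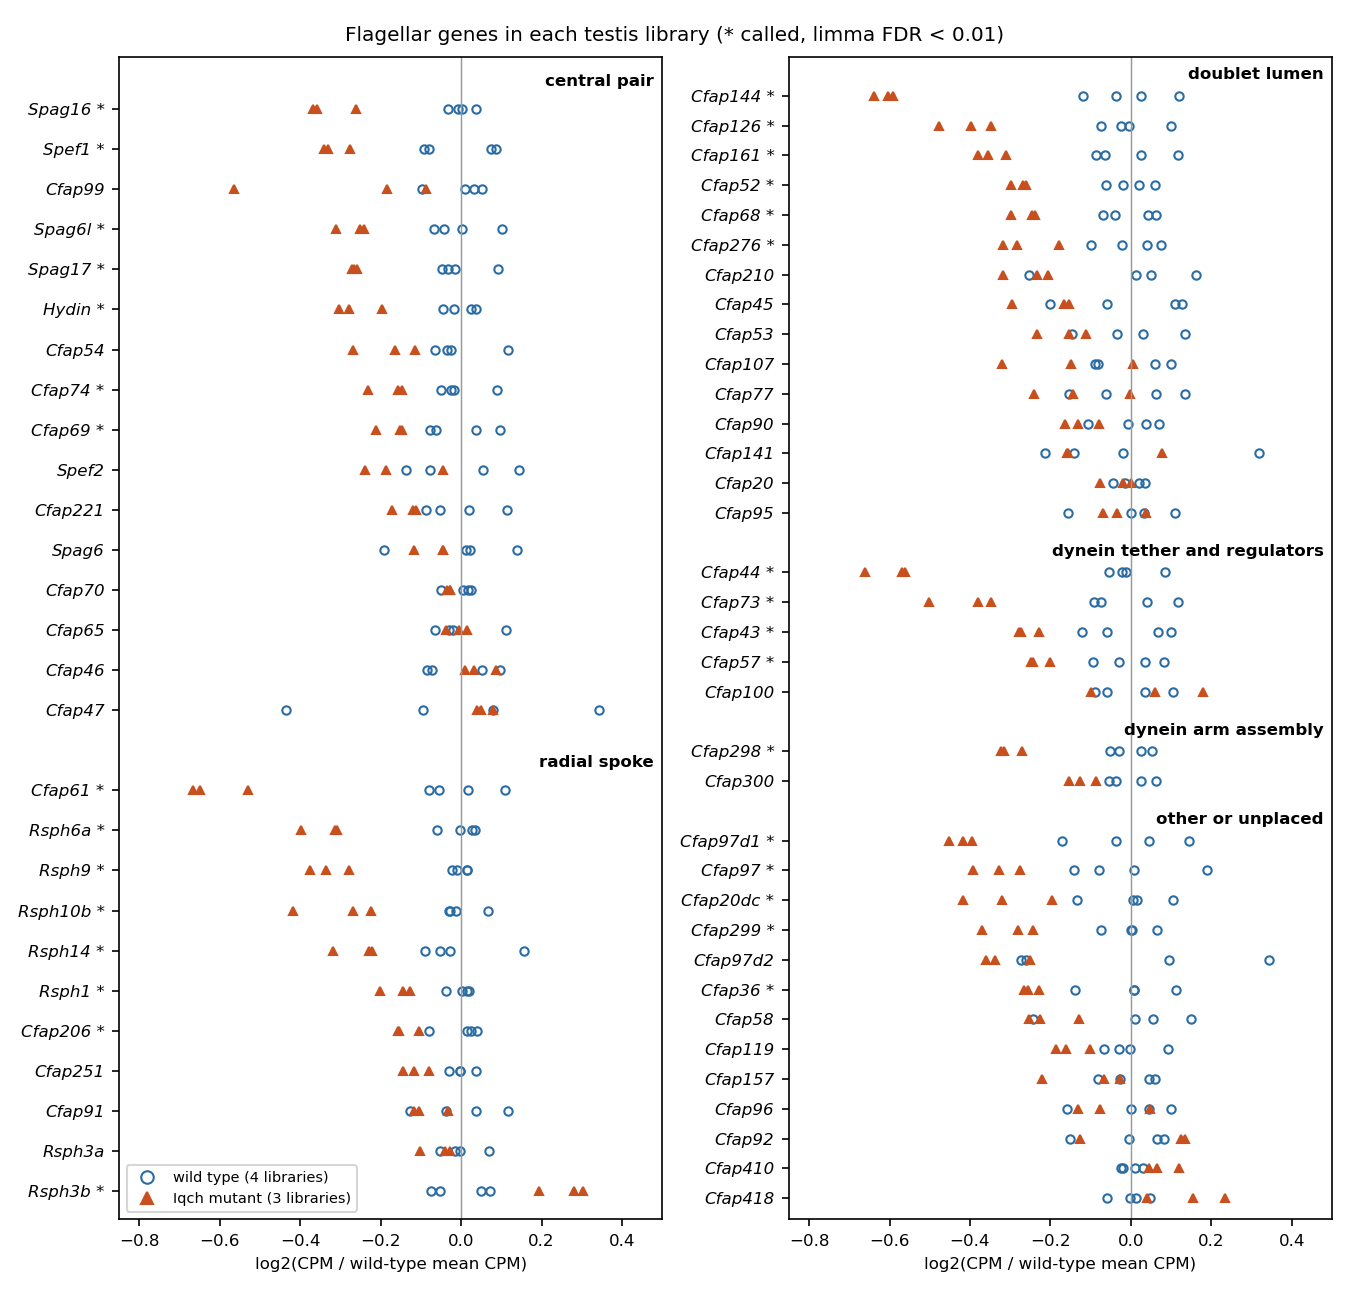
Each row is 1 of the 62 flagellar genes and each symbol 1 library, with log2 of its CPM over the wild-type mean CPM on the horizontal axis (open circles, 4 wild-type libraries; triangles, 3 mutant libraries; asterisk, limma FDR under 0.01). Triangles lie to the left of all circles in 35 genes, furthest in Cfap61, Cfap144 and Cfap44, and to the right in Rsph3b and Cfap410.

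How the libraries were scaled set how many genes passed. With median-of-ratios size factors in place of the deposited scaling, the median of all tested genes moved from 0.12 to -0.01. The count of flagellar genes that fell then rose from 30 to 48 and the count that rose went from 1 to 0, where 25.1% of all tested genes fell, 27% rose and 52.1% did either. All 30 genes that fell on the deposited scale were among the 48. Under this scaling 60 of the 62 genes had a log2 fold change below 0 and their median was -0.32.

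Markers of the cell types of the testis differed between the same libraries. All 7 of the elongating spermatid markers fell (Prm1, Prm2, Tnp1, Tnp2, Odf1, Gapdhs and Smcp), with a summed level of 22627 to 24111 CPM in wild type and 14368 to 16526 CPM in mutants. Of the 6 round spermatid markers 3 fell and 3 did not pass, and their sum was 964 to 1065 CPM in wild type and 859 to 912 CPM in mutants, 86.3% of the wild-type mean. Of the 6 spermatocyte markers 1 rose and 5 did not pass, with sums of 375 to 449 and 369 to 422 CPM. With median-of-ratios size factors all 6 round spermatid markers and 2 of the spermatocyte markers fell, and 0 spermatocyte markers rose. The markers of Sertoli cells, Leydig cells and macrophages moved the other way. All 6 of the Sertoli cell markers rose, from sums of 1088 to 1171 to sums of 2253 to 2402 CPM. So did 5 of the 6 Leydig cell markers (997 to 1202 against 4214 to 4393 CPM) and all 6 of the macrophage markers (65.9 to 72.3 against 163 to 189.9 CPM). Most of the Sertoli rise was Clu (mean 851 against 1816 CPM), and most of the Leydig rise was Insl3 (438 against 2941 CPM). The Leydig marker Star did not pass (0.24, limma FDR 0.246). Over all tested genes 14.2% fell and 36.3% rose, or 25.1% and 27% with size factors.

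No marker list measured here was at 0 in either group. In the remaining lists, 4 of 6 spermatogonial markers rose (sums of 109.9 to 121 against 161 to 189 CPM), where 36.3% of all tested genes rose. Kit made up most of the rise in this sum, with means of 21.7 CPM in wild type and 62.2 CPM in mutants. Zbtb16 rose by 0.80 with overlapping groups, Uchl1 by 0.29 and Dmrt1 by 0.22. Gfra1 (0.30) and Stra8 (0.31) did not pass. Of 4 endothelial markers 2 rose (12.4 to 15.9 against 28.6 to 29.7 CPM), while Pecam1 (0.63) and Tek (-0.29) did not pass. With size factors 1 spermatogonial and 2 endothelial markers rose, where 27% of all tested genes did. The 3 measured markers of peritubular myoid cells did not pass (62.1 to 85 against 69.8 to 94.8 CPM). Their log2 fold changes were 0.28 (Acta2), -0.16 (Myh11) and -0.19 (Cnn1). Cilia are also borne by the multiciliated cells of the efferent ducts, of whose 6 markers only Ccno was measured, at 2.95 to 3.71 CPM in wild type and 2.37 to 3.96 CPM in mutants. The part of these shifts in the flagellar values was not tested. In RNA of a whole testis, fewer cells of a type and less RNA per cell cannot be told apart.

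**Figure D2:**
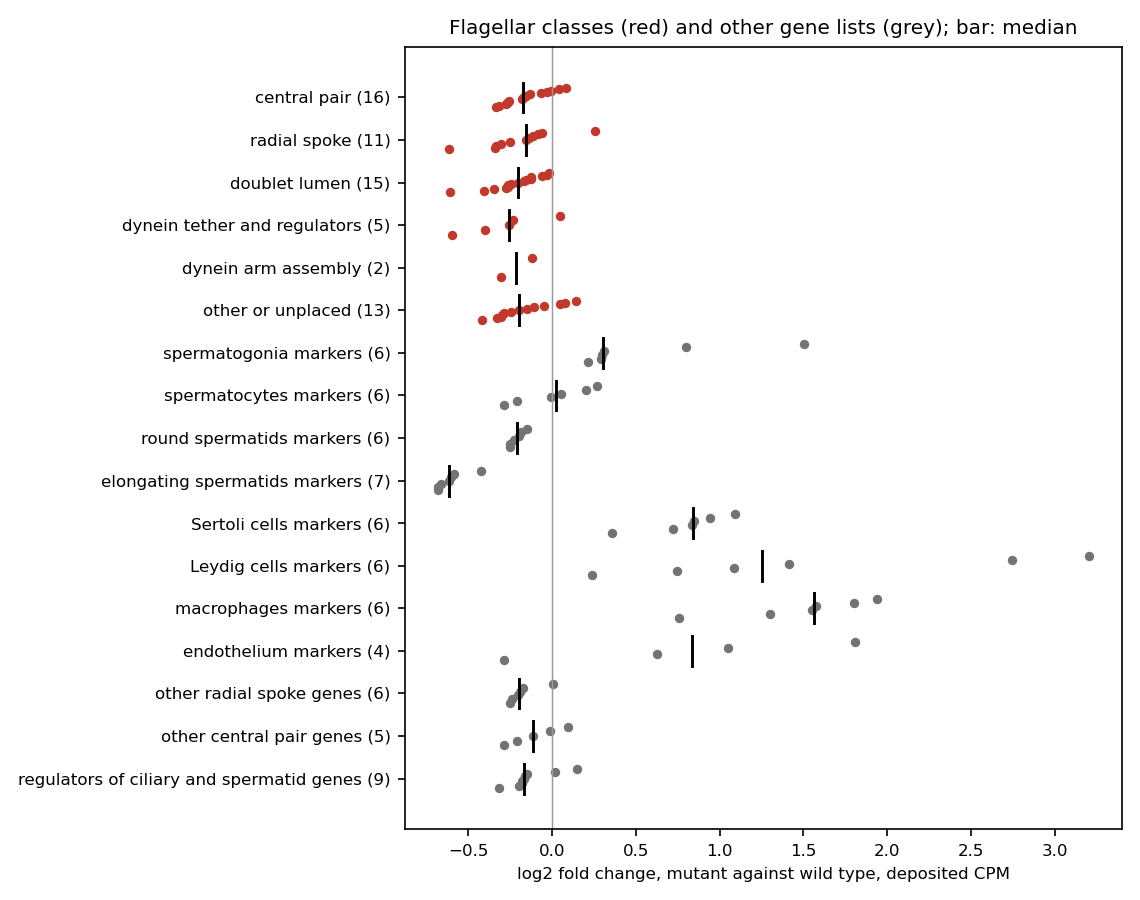
Log2 fold change of mutant against wild type on deposited CPM (horizontal axis) for each gene of the flagellar classes (red) and of the marker and companion lists (grey), with the number of genes in brackets and a bar at the median. The peritubular myoid list (median -0.16) and the multiciliated duct list are not drawn. The class medians lie between -0.26 and -0.16, close to the round spermatid markers at -0.21 and above the elongating spermatid markers at -0.61.

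The central pair carries projections that the spoke heads touch, and its genes gave small falls. Of the 16 genes 7 fell, 0 rose and 9 did not pass, where 14.2% of all tested genes fell and 36.3% rose. The 16 had a median log2 fold change of -0.17. Their summed level was 2859.8 to 2997 CPM in wild type and 2586 to 2639 CPM in mutants, 89.5% of the wild-type mean. The 7 were Spag16, Spef1, Spag6l, Spag17, Hydin, Cfap74 and Cfap69.

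Spag16, the counterpart of the algal PF20 protein that bridges the central pair, was 129, 125, 126 and 123 CPM in wild type and 105, 97.5 and 98.1 CPM in mutants. It fell by 0.33 on the log2 scale (SE 0.04, limma FDR 2.8e-05), to 79.5% of the wild-type level, with no overlap between groups. Spef1, a microtubule-bundling protein of the central pair, was 46.9, 46.5, 52.6 and 52.2 CPM in wild type and 40.9, 39.1 and 39.4 CPM in mutants, and fell by 0.31 (SE 0.06, limma FDR 5.6e-04). Of the read-length windows of the Spef1 transcript, 73.2% also occur in other genes, chiefly Cenpb on the same strand (64.7%), so its value could hold reads of both.

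Hydin, the very large protein of a central pair projection whose loss causes hydrocephalus, was 256, 261, 269 and 271 CPM in wild type and 218, 214 and 230.4 CPM in mutants. It fell by 0.26 (SE 0.04, limma FDR 1.4e-04). Spag17, the counterpart of algal PF6 and a scaffold of another projection, was 421, 417, 459 and 426 CPM in wild type and 358, 360.3 and 357 CPM in mutants. Its log2 fold change was also -0.26 (SE 0.04, limma FDR 1.1e-04), and the mutant libraries were nearly level with each other (SD 1.51 CPM, n = 3).

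Spag6 and Spag6l are paralogs of the algal PF16 gene, and they gave different results. Spag6l was 344, 328, 369 and 334 CPM in wild type and 291, 277 and 289 CPM in mutants, and fell by 0.27 (SE 0.05, limma FDR 2.4e-04). Spag6 was 141, 129, 130.0 and 112 CPM in wild type and 124, 118 and 124 CPM in mutants, with a log2 fold change of -0.06 (95% confidence interval -0.21 to 0.08, limma FDR 0.408). The Spag6 groups overlapped because wild-type mouse 4 lay below every mutant. The ratio of Spag6l to Spag6 CPM was 2.44, 2.53, 2.84 and 2.99 in wild type and 2.35, 2.35 and 2.32 in mutants, and the difference between the fold changes of the 2 genes was not tested.

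Spef2, needed for the assembly of a central pair projection and of the sperm tail, was 42.3, 51.4, 48.3 and 44.1 CPM in wild type and 39.4, 45.1 and 40.9 CPM in mutants. Its log2 fold change was -0.15 (95% confidence interval -0.31 to 0.01, limma FDR 0.0885), and mutant 2 lay above 2 wild-type mice. Among the Cfap genes of the central pair, Cfap74 and Cfap69 fell by 0.17 each (limma FDR 0.00483 and 0.00798). Cfap69, a protein that sperm need for tail shape, was 386 to 436 CPM in wild type and 352 to 368 CPM in mutants.

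The other Cfap genes of the central pair did not pass. Cfap99 had a log2 fold change of -0.28 with an SE of 0.09 (limma FDR 0.0202), and mutant 2, at 35.4 CPM, lay far from mutants 1 and 4 at 46.1 and 49.3 CPM. Cfap54 (-0.18, limma FDR 0.0157) and Cfap221 (-0.13, limma FDR 0.0766) did not overlap between groups. Cfap70, Cfap65, Cfap46 and Cfap47 ran from -0.03 to 0.08. Cfap47, the only flagellar gene on the X chromosome, was 10.5 to 18 CPM in wild type, with an interval of -0.22 to 0.39. That interval holds changes of the size of Cfap74 and Cfap69 (-0.17 each), but not those of Spag16 (-0.33) or Hydin (-0.26).

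Radial spokes are T-shaped, with a stalk on the doublet and a head towards the central pair. Of their 11 genes 7 fell, 1 rose and 3 did not pass, where 14.2% of all tested genes fell and 36.3% rose. The 11 had a median log2 fold change of -0.16. Their summed level was 2541 to 2595 CPM in wild type and 2252 to 2299 CPM in mutants, 88.9% of the wild-type mean.

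Rsph1, a head protein, was the most abundant flagellar gene, with 924, 915, 890.1 and 927 CPM in wild type and 837, 827 and 795 CPM in mutants. Its fall was among the smaller ones at 0.16 on the log2 scale (SE 0.04, limma FDR 0.00213), from 914 ± 16.6 CPM (SD, n = 4) to 819.9 ± 22.3 CPM (SD, n = 3), and the groups did not overlap. The call was lost when mutant 4, the lowest library, was left out.

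The other head genes fell by more. Rsph6a, a testis-enriched relative of Rsph4a, was 295, 278, 289 and 297 CPM in wild type and 234, 233 and 220.0 CPM in mutants, and fell by 0.34 (SE 0.04, limma FDR 1.3e-05). Rsph9 was 115, 115, 113 and 112 CPM in wild type and 93.7, 87.6 and 90.1 CPM in mutants, and fell by 0.33 (SE 0.04, limma FDR 2.3e-05). Rsph10b, which has the repeats typical of head proteins, was 66.5, 66.4, 71 and 67.2 CPM in wild type and 58, 50.7 and 56.3 CPM in mutants, and fell by 0.30 (SE 0.06, limma FDR 4.3e-04). In all of these the 3 mutant libraries lay below the 4 wild-type libraries.

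Rsph14 was the gene nearest the threshold among those that passed. It was 26.1, 23, 22.6 and 22 CPM in wild type and 20, 18.8 and 20.1 CPM in mutants, a fall of 0.25 (SE 0.07, limma FDR 0.0088). Leaving out any library but wild-type mouse 4 lost the call.

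Rsph3a and Rsph3b encode stalk proteins that anchor protein kinase A, and Rsph3b was the 1 spoke gene that rose. Rsph3a (chr17:8164398-8198656, plus strand, GRCm39) was 124, 117, 114 and 118 CPM in wild type and 116, 115 and 110.1 CPM in mutants, with a log2 fold change of -0.06 (95% confidence interval -0.16 to 0.03, limma FDR 0.236). Rsph3b (chr17:7171598-7216144, minus strand) was 100.5, 93.7, 92.2 and 102 CPM in wild type and 118, 119.7 and 111 CPM in mutants. It rose by 0.26 (SE 0.05, limma FDR 7.4e-04), to 120% of the wild-type level, and every mutant lay above every wild type. With size factors its log2 fold change was 0.12 and its FDR 0.0565.

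The 2 genes are near-identical copies, so their split is uncertain. Of the windows of 1 read length in the Rsph3a transcript 60.7% occur in Rsph3b, and of those of Rsph3b 54.5% occur in Rsph3a. The share of Rsph3b in the sum of both was 44.4% to 46.4% in wild type and 50.1% to 51.1% in mutants. The sum itself was 225, 211, 207 and 220.5 CPM in wild type and 234, 234 and 221 CPM in mutants, where the groups overlapped. How reads that match both copies were counted is not given in the sources used here.

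The spoke genes with Cfap names belong to the base of the spokes. Cfap61, part of the calmodulin- and spoke-associated complex, was 84.6, 79.2, 80.6 and 90.3 CPM in wild type and 53.4, 52.7 and 58 CPM in mutants. It gave the largest fall of the 62 genes, 0.61 on the log2 scale (SE 0.06, limma FDR 1.4e-06), to 65.4% of the wild-type level. Cfap206, which docks spokes to the doublet, fell by 0.14 (limma FDR 0.00866), from 636 to 690.5 CPM in wild type to 603 to 625 CPM in mutants. Its call was lost when any library but wild-type mouse 4 was left out. Cfap251 and Cfap91, partners of Cfap61 in that complex, did not pass (log2 fold changes of -0.12 and -0.08, limma FDR 0.028 and 0.244), although the groups of Cfap251 did not overlap.

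**Figure D3:**
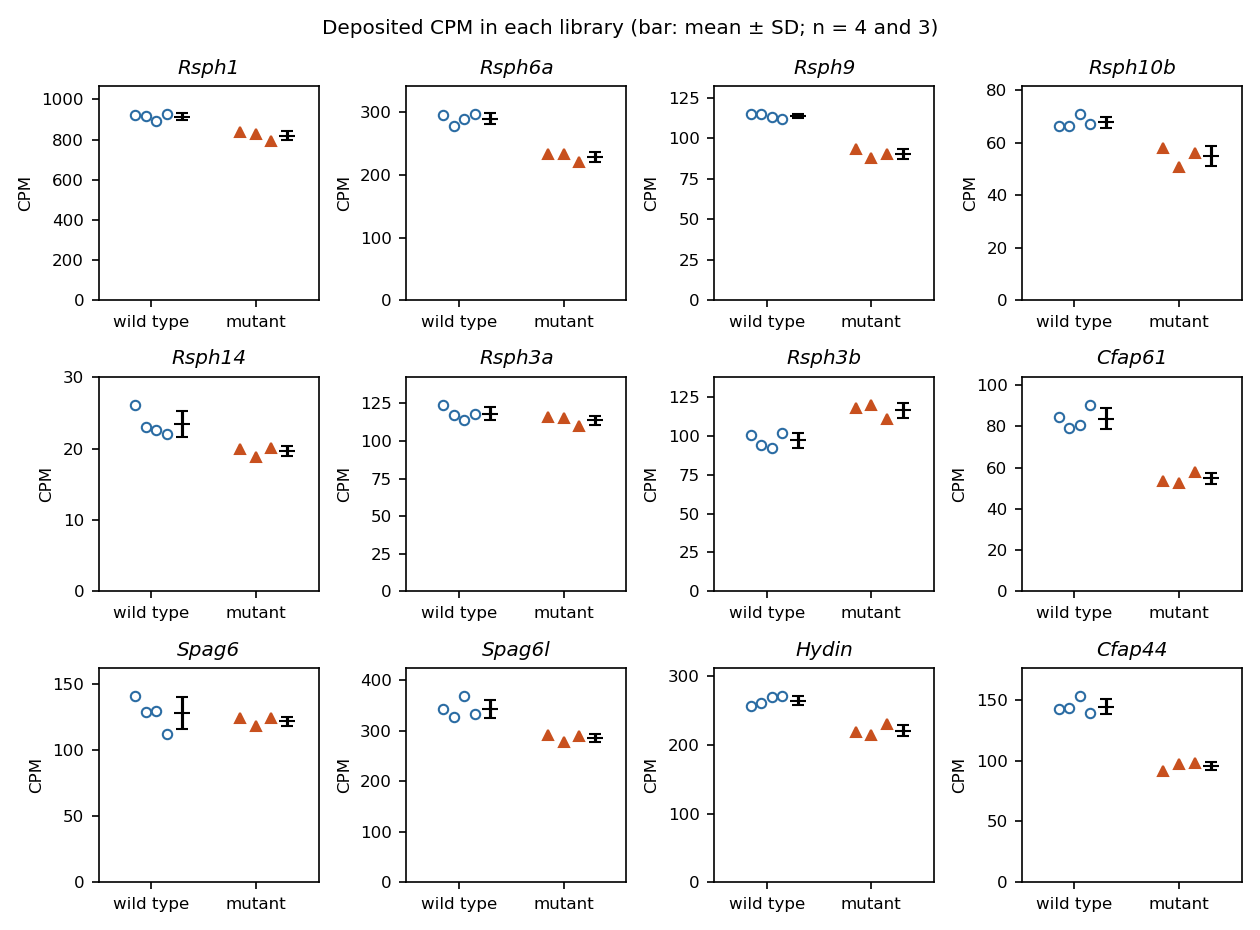
Deposited CPM (vertical axis, from 0) of 12 flagellar genes in each library, with circles for the 4 wild-type and triangles for the 3 mutant libraries and a bar for the mean ± SD of each group. Cfap61 and Cfap44 show the widest gaps, Rsph3b is higher in mutants, and the groups of Rsph3a and Spag6 overlap.

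The 35 genes of neither the central pair nor the spokes gave 16 that fell, 0 that rose and 19 that did not pass. Among all tested genes 14.2% fell and 36.3% rose. The 35 had a median log2 fold change of -0.23. Their summed level was 4081 to 4499 CPM in wild type and 3615 to 3724 CPM in mutants, 84.7% of the wild-type mean. The differences between the classes were not tested.

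The doublet lumen holds the microtubule inner proteins. Of its 15 genes 6 fell, 0 rose and 9 did not pass, where 14.2% of all tested genes fell and 36.3% rose. The 15 had a median log2 fold change of -0.20. Cfap144 was 88.6, 98.8, 83.7 and 92.6 CPM in wild type and 60.4, 59.8 and 58.4 CPM in mutants, and fell by 0.61 (SE 0.06, limma FDR 1.3e-06). Cfap126, also known as Flattop, was 147, 158, 140.2 and 145 CPM in wild type and 116, 106 and 112 CPM in mutants, and fell by 0.41 (SE 0.05, limma FDR 1.7e-05). Cfap161 was 98.7, 105, 112 and 97.3 CPM in wild type and 83.2, 80.7 and 79.3 CPM in mutants, and fell by 0.35 (SE 0.05, limma FDR 1.1e-04). The groups were apart in each of the 3 genes.

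Cfap52, Cfap68 and Cfap276 fell by 0.26 to 0.27 on the log2 scale. Cfap20, which with Cfap52 lies near the inner junction of the doublet, had a log2 fold change of -0.03 (95% confidence interval -0.13 to 0.06), with 81.7 to 86.3 CPM in wild type and 79.8 to 84.2 CPM in mutants. All 15 lumen genes had a log2 fold change below 0, the smallest in Cfap95 at -0.02. In Cfap210 and Cfap45 the wild-type values were scattered, with wild-type mouse 4 lowest at 100.5 and 217 CPM, and their log2 fold changes of -0.24 and -0.20 did not pass (limma FDR 0.016 and 0.0281).

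Of the 5 genes for tethers and regulators of inner dynein arms 4 fell and 1 did not pass. Their median log2 fold change was -0.26. Among all tested genes 14.2% fell and 36.3% rose. Cfap44, which forms the tether together with Cfap43, was 142, 143, 153 and 139 CPM in wild type and 91.3, 97.3 and 97.7 CPM in mutants. It had the lowest FDR of the 62 genes, with a fall of 0.59 (SE 0.05, limma FDR 3.6e-07), to 66.2% of the wild-type level. Cfap43 fell by less, 0.26 (SE 0.05, limma FDR 1.0e-03), from 321 to 374 CPM in wild type to 288 to 298 CPM in mutants. The difference between the fold changes of the partners was not tested.

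Cfap73 and Cfap100 encode partners in the complex that modifies inner arm activity. Cfap73 was 16.8, 19.2, 18.2 and 16.6 CPM in wild type and 13.9, 12.5 and 13.6 CPM in mutants, and fell by 0.40 (SE 0.08, limma FDR 6.7e-04). Cfap100 was 56.6 to 64.8 CPM in wild type and 56.2 to 68.2 CPM in mutants, with a log2 fold change of 0.05 (95% confidence interval -0.10 to 0.20), which was below 0 with size factors. Cfap57 fell by 0.23. Of the assembly factors that prepare dynein arms in the cytoplasm, Cfap298 fell by 0.30 (limma FDR 7.7e-05), and Cfap300 had a log2 fold change of -0.12 (limma FDR 0.0514) without overlap between groups.

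Among the 13 other or unplaced genes 5 fell, 0 rose and 8 did not pass, where 14.2% of tested genes fell and 36.3% rose. The 13 had a median log2 fold change of -0.20. Cfap97d1, which is needed for the stability of the sperm axoneme, was 81.1, 94.3, 89.1 and 101 CPM in wild type and 66.8, 68.4 and 69.5 CPM in mutants, and fell by 0.42 (SE 0.07, limma FDR 1.2e-04). Its relative Cfap97 fell by 0.33, and Cfap20dc, Cfap299 and Cfap36 by 0.25 to 0.30. Cfap97d2, at 3.23 to 4.95 CPM in wild type one of the lowest flagellar genes, had an interval of -0.63 to 0.06, so that a fall of the size seen in Cfap97d1 was not detectable in it.

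A few unplaced genes leaned the other way without passing. Cfap418, known from a retinal ciliopathy, was 59.1 to 63.7 CPM in wild type and 63.4, 72.5 and 68.6 CPM in mutants, with a log2 fold change of 0.14 (limma FDR 0.0361). Cfap410, also linked to retinal disease, was 28.6 to 29.7 CPM in wild type and 30, 31.6 and 30.4 CPM in mutants (log2 fold change 0.08, limma FDR 0.239). The direction of Cfap410 turned to -0.06 with size factors, and 55.8% of its read-length windows also occur in Pfkl on the opposite strand.

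Levels between genes were compared as CPM per kilobase of exon, since a longer transcript yields more reads. The length used is that of all annotated exons of a gene, which can far exceed the canonical transcript. In Rsph9 it is 7900 against 973 bases, and in Cfap61 11908 against 4043 bases. The order of the genes therefore also depends on how much exon is annotated. On this scale the wild-type median of the 62 genes was 26.7, against 3.68 for all tested protein-coding genes. Rsph1 stood at 595, then Cfap206 at 262, Cfap97d1 at 114, Rsph6a at 95.7, Cfap144 at 92.9 and Cfap126 at 83.3. The lowest were Cfap97d2 at 0.748, Cfap20dc at 1.29 and Cfap47 at 1.39. The 2 genes of highest level, Rsph1 and Cfap206, are both spoke genes with small falls, and the genes with falls beyond 0.5 stood at 7.03 (Cfap61), 17.1 (Cfap44) and 92.9 (Cfap144).

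**Figure D4:**
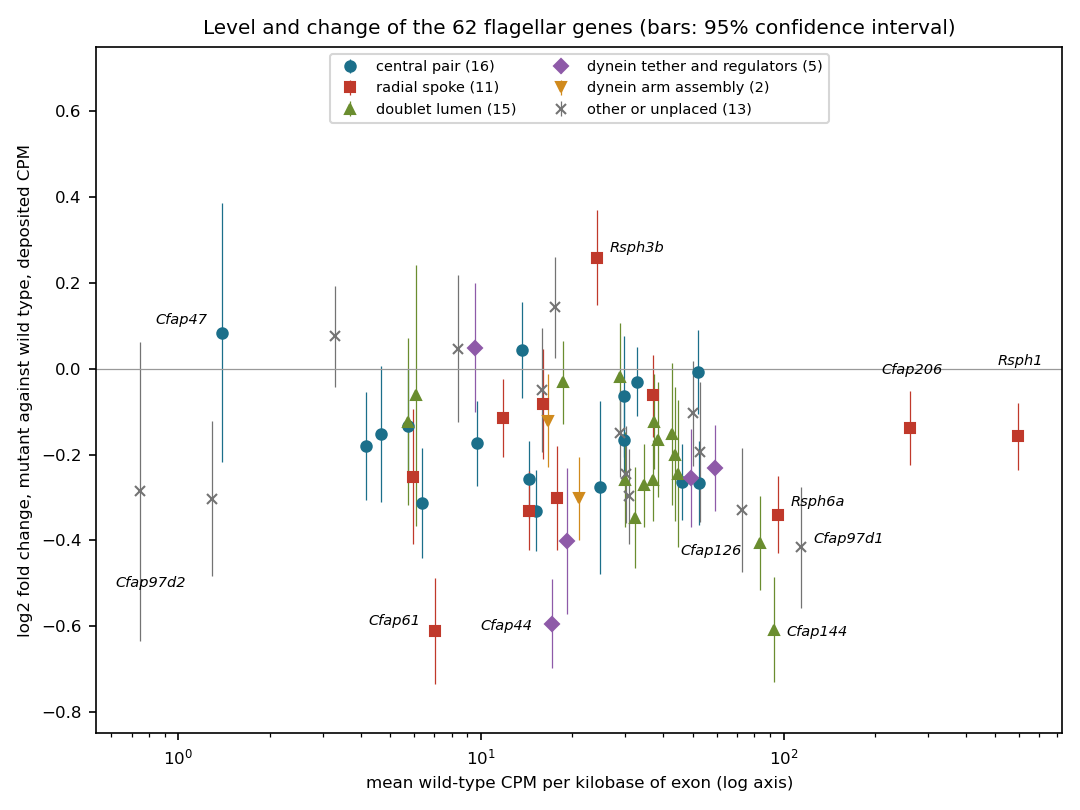
Wild-type mean CPM per kilobase of all annotated exons (log axis) against the log2 fold change of mutant over wild type on deposited CPM. The 62 flagellar genes are shown by class, with bars for the 95% confidence interval. The falls beyond 0.5 occur at 7.03, 17.1 and 92.9 CPM per kilobase, and Rsph1 at 595 has a log2 fold change of -0.16.

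Sequence shared with other genes was searched for in the canonical transcript of each gene only. In Rsph9 this transcript has 973 bases, against 7900 in all annotated exons. Sharing in the other annotated exons was not examined, so the counts below can be too low. Of the 62 genes 9 share at least 25% of their read-length transcript windows with another gene (Cfap36, Cfap90, Cfap119, Cfap141, Cfap298, Cfap410, Rsph3a, Rsph3b and Spef1), and 32 share none. Among the 53 under that share 27 fell and 0 rose, and among the 9 above it 3 fell (Cfap36, Cfap298 and Spef1) and 1 rose (Rsph3b).

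Genes of the same structures that carry other names had log2 fold changes from -0.29 (Kif9) to 0.10 (Mycbpap). Of 6 further spoke genes 4 fell, namely Dnajb13 (0.25), Ropn1l (0.24), Lrrc23 (0.20) and Nme5 (0.19), all by the log2 scale, while Iqub and Cyb5d1 did not pass at -0.17 and 0.00. Ropn1l, a spoke stalk protein of sperm, was 979.6 to 1026 CPM in wild type and 830.4 to 876 CPM in mutants. Of 5 further central pair genes 2 fell, the kinesin Kif9 by 0.29 and Dlec1 by 0.21. Mycbpap, Adgb and Spata17 did not pass, with log2 fold changes of 0.10, -0.01 and -0.11. Beside these counts, 14.2% of all tested genes fell, 36.3% rose and 50.4% did either.

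Of 9 regulators known to control ciliary or spermatid genes 4 fell, 0 rose and 5 did not pass. Over all tested genes 14.2% fell, 36.3% rose and 50.4% did either. Rfx2 and Rfx3, factors that bind X-box motifs at ciliary genes, fell by 0.15 and 0.18, Sox30 by 0.18 and Tbpl1 by 0.20. Rfx2 was 395 to 422 CPM in wild type and 361 to 383 CPM in mutants. Foxj1, a factor of motile cilia, had a log2 fold change of -0.32, but its values overlapped (77.9 to 108 CPM against 64.8 to 81 CPM) and it did not pass (limma FDR 0.0147). Crem, Mybl1, Rfx1 and Taf7l did not pass. With wild-type mouse 2 or mutant 2 left out, 0 of the 9 regulators passed in limma, and with wild-type mouse 1 left out only 1 did.

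Because Rfx factors bind the X-box, the promoters were searched for it, from 250 bases before to 50 bases after the start of the canonical GENCODE transcript on GRCm39, on both strands. The half-site GTTGCCA, which reads TGGCAAC on the other strand, was in 17 of the 62 flagellar promoters (27.4%) and in 639 of 13785 protein-coding promoters (4.64%). It was in 5 of 16 central pair genes, 1 of 11 spoke genes, 4 of 15 lumen genes, 2 of 5 tether genes, 1 of 2 assembly genes and 4 of 13 others. It was in 6 of the 30 genes that fell (20%) and in 11 of the other 32 (34.4%). The palindromic form, GTTNCC and GGNAAC with 2 bases between them, was in 2 of the 62 (3.23%), Cfap20dc and Cfap96, against 0.566% of protein-coding promoters, and neither holds the half-site. The cyclic AMP response element TGACGTCA, the motif of Crem, was in 2 of the 62 (3.23%), Cfap91 and Cfap210, against 3.09%. These matches describe the letters in the windows and are not binding sites measured here.

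Stretches of 30 bases around a match are shown for genes that fell (Cfap44, Cfap161, Cfap73 and Cfap20dc) and for genes that did not pass (Spag6, Cfap65, Cfap251 and Cfap96), so that both kinds can be compared. Each is written 5′ to 3′ on the strand of the gene, from GRCm39, with the match in capitals.
Cfap44, first match (chr16:44215021-44215050, plus strand): ggacgactctgTGGCAACacctcagtttag
Cfap44, second match (chr16:44215122-44215151, plus strand): caggcggagggacgttgctaTGGCAACcgc
Cfap161 (chr7:83444096-83444125, minus strand): tcttgaccaacTGGCAACtggcaactgcct
Cfap73 (chr5:120772408-120772437, minus strand): aagctgctgccTGGCAACagaatgtgtact
Cfap20dc (chr14:13803373-13803402, plus strand): gcccctcaGTTGCCTGGGCAACggctcagc
Spag6 (chr2:18703436-18703465, plus strand): cggagtaatgtGTTGCCAgtgttgctttga
Cfap65 (chr1:74974777-74974806, minus strand): gggttgccgtcGTTGCCAtgggataccaaa
Cfap251 (chr5:123390135-123390164, plus strand): tttcctgcgactagccGTTGCCAtagggac
Cfap96 (chr8:46428293-46428322, minus strand): gttctcccGTTCCCACGGCAACgcggccta
The Cfap161 promoter holds 3 half-sites, 2 of them back to back in the stretch shown. Cfap44, which fell to 66.2% of wild type, and Cfap251, which did not pass, hold 2 each.

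The genes were spread over the genome, on 19 chromosomes. The median number of exons was 9, as for all tested protein-coding genes. Of the wild-type libraries, mouse 4 was the lowest in 29 of the 62 flagellar genes, against 25.6% of all tested genes. The count that fell was 34 without that library and 25 to 27 without any one of the others, and 24 of the 30 genes passed in each of these fits. The 6 that lost the call in at least 1 of them were Cfap206, Cfap20dc, Cfap69, Cfap74, Rsph1 and Rsph14.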

How the data were processed

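Total RNA of whole testes was sequenced from TruSeq libraries with paired-end reads. The authors trimmed reads with Trimmomatic, mapped them with Subread to GRCm39 and counted them with featureCounts. Genes that did not reach 75 reads in at least 2 samples of 1 group had been removed by them. The strand setting and the annotation release are not given in the sources used here. The authors deposited CPM, which summed to 1000000 in each library and were whole multiples of a step (100% of values, tolerance 0.001), so these values carry no scaling between samples that could be seen.

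A gene was tested where 2 libraries of either group reached 2.2 CPM, which held for 17126 genes. The fit was that of limma 3.58.1 (R 4.3.3), with lmFit and a trended eBayes step, on log2(CPM + 0.1), which understates changes of low genes. P-values were adjusted by Benjamini-Hochberg over all tested genes, and genes were called at an FDR of 0.01. Adjusted p-values and the 95% intervals rest on 4 wild-type and 3 mutant mice. Gene types, positions and promoters came from GENCODE M39, in which 17045 genes of the table were found. Python 3.11.15, pandas 2.3.3, SciPy 1.17.1 and matplotlib 3.10.9 were also used. The fit was tested on simulated data.

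Values in every library are given for the 7 genes without a Cfap or Rsph name, all Rsph genes and the called genes among the 8 largest rises or falls. Other genes were named after their values were seen. The members, classes, marker lists and companion lists were chosen with earlier results of these data known. Classes and lists were described by counts and medians, without set tests. Alternatives were pseudocounts of 1 and 0.01, a minimum of 5 CPM or none, scaling by median-of-ratios size factors, a block for the replicate number, and leaving out each library.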

Additional observations from a re-analysis of the deposited data

How the results depend on the processing

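Pseudocounts of 1 or 0.01, no minimum and a minimum of 5 CPM changed no call among the 21 flagellar genes whose values in every library are given and left the counts at 30 lower and 1 higher. With median-of-ratios size factors 48 genes were lower and 0 higher in limma. Over all tested genes 8921 passed (52.1%), against 8640 (50.4%) on the deposited scale. With size factors 12 central pair genes passed in place of 7, and 7 regulators in place of 4. Spef2 and Rsph3a then passed and Rsph3b did not. With the replicate number as a block, 26 of the 30 were lower and 1 higher, 3 of the further spoke and central pair genes passed in place of 6, and 2 regulators in place of 4. The sample labels do not say whether equal numbers pair the mice. Deviations of same-numbered libraries from their group means correlated at 0.026, 0.009 and -0.098. Those of differently numbered libraries correlated at -0.061 to 0.073, and these values cannot show how the mice were matched. Leaving out 1 library in turn gave 25 to 34 genes lower, 1 higher, 5 to 7 central pair genes, 5 to 8 spoke genes (5 without mutant 4), 4 to 7 further spoke and central pair genes (4 without mutant 2 or mutant 4), 0 to 4 regulators and -1.66 to -1.60 for Iqch. Of 273 alternative values of those 21 genes, 262 kept their direction and call, 9 lost the call (Rsph14 in 7, Rsph3b and Rsph1), 2 gained it and 0 reversed. Count models with edgeR and DESeq2 were planned and not run, because too few low values were left in the table for read counts to be recovered from the CPM under the rule set for this. The number of libraries limits the precision, and genes of low level such as Cfap97d2, Cfap141 and Cfap47 have wide intervals.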
